A study of Mus musculus with 50 samples.

Results

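Hox genes encode homeodomain transcription factors that lie in the Hoxa, Hoxb, Hoxc and Hoxd clusters. All genes whose symbol is Hoxa, Hoxb, Hoxc or Hoxd followed by a number were taken, which gave 39 of the 56691 genes in the table. Of these, 16 belong to paralog groups 9 to 13, the posterior end of the clusters, and 23 to groups 1 to 8. Their levels were read in colon of 50 mice, 1 library of poly(A) RNA per mouse, in 5 groups of 10. The strain is given as BALBC, all mice carry the same batch number, and the series text places the tissue in the distal colon. Sham mice were compared with mice given TNBS (trinitrobenzene sulfonic acid, a hapten that provokes colitis) and vehicle, and with TNBS mice treated with A1007 in doses of 10, 30 or 90 mpk (unit as in the labels). The series text names the compound YUQ-A1007 and describes it as an AhR agonist, that is, a ligand that activates the aryl hydrocarbon receptor. The vehicle mice and all A1007 mice had received TNBS. The labels give neither age nor sex.

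In the embryo the genes of a cluster are switched on in order, those at one end of the cluster first and furthest forward, so that each level of the body axis carries its own combination. Part of that code is kept in the adult gut, where posterior members are highest towards the rectum. Hoxa13, Hoxb13 and Hoxd13 are the most posterior members measured here at more than trace levels. Hoxa13 and Hoxd13 are required for the hindgut and anorectum in the mouse embryo, and Hoxb13 is known as a gene of the distal colon and prostate. The set can therefore serve as a scale for where along the colon a piece of tissue was taken, which is how it was used here. In bulk tissue, fewer cells of a type and less RNA per cell cannot be told apart.

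Library totals ran from 14373337 to 20446967 counts, and Hox genes together took between 385.76 and 792.39 CPM (counts scaled to library size). Stomach markers summed to at most 2.18 CPM in any library, and 7 markers of bladder, prostate and other urogenital tissue to at most 11.98 CPM. Squamous markers, which would show anorectal lining, ran from 3.97 to 91.71 CPM in vehicle mice, all above the 0.37 to 2.11 CPM of sham mice, and reached 50.47 CPM at 10 mpk. Both tested squamous markers were called higher than sham in every TNBS group. Pancreatic acinar markers reached 39142.06 CPM in vehicle replicate 6, against a median of 87.56 CPM in its group. Small intestinal markers summed to 138.79 to 417.98 CPM in sham and 61.5 to 263.16 CPM in vehicle mice. At 10, 30 and 90 mpk the sums ran from 34.08 to 343.77, 38.78 to 97.1 and 60.21 to 257.28 CPM. At 30 mpk against sham 2 of 7 tested were called higher and 4 lower, beside 30.3% and 28.7% of all genes. Their part in the Hox levels was not tested. Among them Slc10a2, the bile acid carrier, ran from 5.74 to 80.65 FPKM over the 50 libraries. A pair of 10 mpk libraries, replicates 3 and 8, stood apart in the Hox genes themselves and are described before the comparisons.

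Of the 39 members, 29 had enough counts to be tested, 11 of 16 in groups 9 to 13 and 18 of 23 in groups 1 to 8. All 11 Hoxa genes, 9 of 10 Hoxb genes and 8 of 9 Hoxd genes were among them, against 1 of 9 Hoxc genes. The Hoxc cluster was close to silent. Hoxc6 was the highest of the 10 untested members at 0.84 FPKM (a level per exon length and library size) in its highest library, and Hoxc13 and Hoxc12 each had no count in 49 of 50 libraries. Posterior members led the other clusters. Hoxb13 had the highest mean FPKM over the 50 mice, at 64.29, followed by Hoxd13 at 27.15, Hoxb9 at 22.13, Hoxa13 at 20.63 and Hoxa10 at 15.15. The highest anterior members were Hoxa7 at 14.11, Hoxa5 at 11.52, Hoxb6 at 10.63 and Hoxb7 at 9.19 FPKM. Within Hoxd the levels were not a simple gradient. Hoxd13 stood far above its neighbour Hoxd12, at 0.81 FPKM, while Hoxd10 and Hoxd8, at 6.24 and 4.64 FPKM, lay between them.

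**Figure D1:**
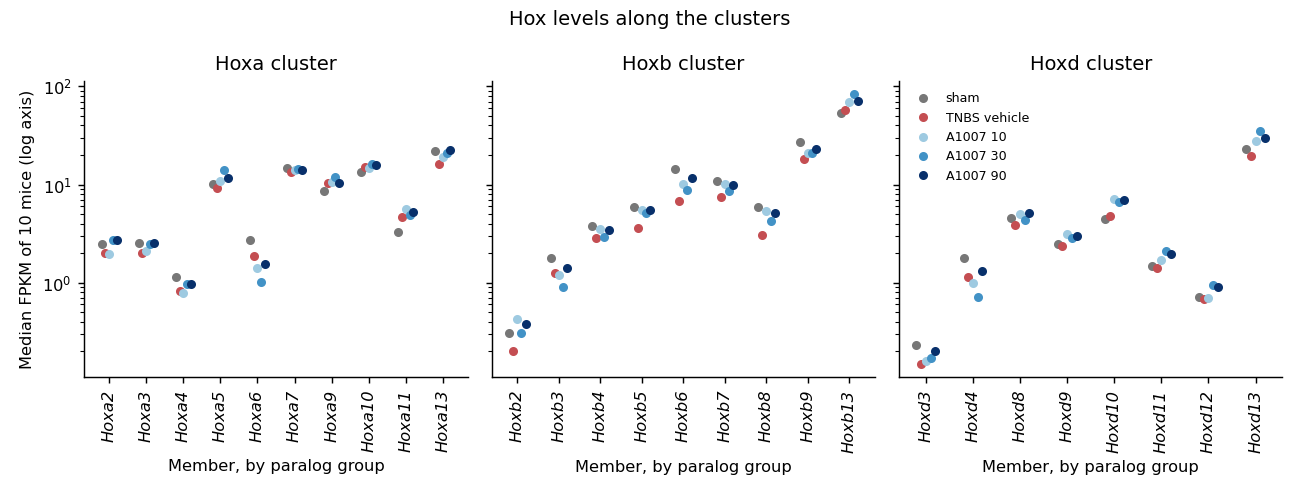
Median FPKM of 10 mice (log axis) for tested members of groups 2 to 13 of the Hoxa, Hoxb and Hoxd clusters, ordered by paralog group from left to right, with 1 point per group of mice. Hoxb13 is the highest member, and Hoxd12 lies well below Hoxd13.

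Counting can mix neighbours in these dense clusters. On GRCm39, 15 members overlapped another gene on the same strand and 14 overlapped a gene on the opposite strand, and no source used here says whether the counting used strand. Hoxa3 spans Hoxa4, Hoxa5 and Hoxa6, and Hoxd3 spans Hoxd4, so values of these members are uncertain to that extent. Hoxa13, Hoxb13 and Hoxd13 overlapped no other gene. Hoxa13 lies at chr6:52234674-52237788 on the minus strand, Hoxb13 at chr11:96085142-96088273 and Hoxd13 at chr2:74498654-74501943, both on the plus strand. Hoxa11 overlaps the antisense gene Hoxa11os.

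The share of all group 9 to 13 FPKM that came from group 13 was used as the position measure of a library. It had a median of 60.7% in sham mice (lowest 52.91%, highest 71.38%) and 61.44% in vehicle mice (44.58% to 67.24%). At 10 mpk the median was 61.4%, with a range from 19.15% to 77.97%. At 30 mpk it was 67.61% (61.99% to 77.57%) and at 90 mpk 64.39% (58.94% to 66.36%). The group medians thus lay close together for sham, vehicle and 10 mpk mice and highest at 30 mpk, and the 5 ranges overlapped. The share is a description over chosen genes and was given no test. The 90 mpk mice were the most alike, with an SD of 2.41 percentage points against 18.75 at 10 mpk. Group 9, which is led by Hoxb9 and Hoxa9, had a median share of 24.56% in sham, 21.1% in vehicle, 20.4% in 10 mpk and 17.4% in 30 mpk mice. The shares of the 5 groups of paralogs sum to a fixed total in each library.

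**Figure D2:**
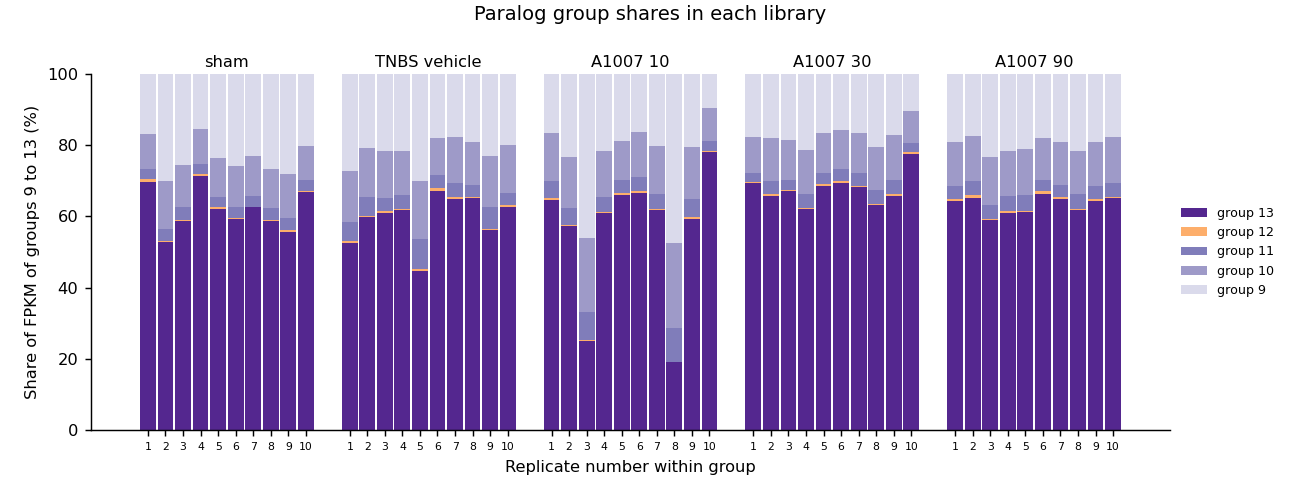
Share in percent of the summed FPKM of paralog groups 9 to 13 that each paralog group took, 1 bar per library, by group and replicate number. Replicates 3 and 8 of the 10 mpk group have the smallest group 13 shares, 24.96% and 19.15%, and replicate 10 of the 10 mpk and of the 30 mpk group the largest, 77.97% and 77.57%.

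Replicates 3 and 8 of the 10 mpk group differed from the other libraries in both directions along the clusters. The labels give no position per mouse, so a different piece of colon and a different expression in the same piece cannot be told apart. Hoxb13 was at 7.17 and 3.96 FPKM in them, against 18.06 to 120.75 FPKM in the other 48 libraries. Hoxd13 was at 1.37 and 0.63 FPKM against 7.52 to 68.96, and Hoxd12 at 0.13 and 0 FPKM against 0.31 to 1.46. These 3 were the tested members that lay below all other 48 libraries in both. In the opposite direction Hoxd4 (2.34 and 2.35 FPKM against at most 2.26) and Hoxd8 (7.47 and 7.86 against at most 6.82) lay above all other 48. Hoxb3, Hoxb4, Hoxb5, Hoxb6, Hoxb8, Hoxb9 and Hoxd3 lay above the other 8 mice of the group only. Hoxa5 (8.26 and 8.29 FPKM against at least 9.65), Hoxa9, Hoxa10 and Hoxd11 lay below those 8 only, so that Hoxa5, an anterior member, went with posterior ones. The remaining 13 tested members lay within the range of the 8 or on both sides of its edge. Hoxa13 did not share the loss to that degree, at 12.94 and 11.32 FPKM, against a median of 19.6 FPKM in the other 8 mice of the group, 1 of which lay between them. The ratio of Hoxd13 to Hoxd8 was 0.18 and 0.08 in these libraries and between 1.69 and 46.75 in the rest.

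The break along the Hoxd cluster can be read beside the start sites of its genes. For Hoxd13 and Hoxd12, which were lowest of all libraries in that pair, and Hoxd8 and Hoxd4, which were highest, the 250 bases before the start are printed 5′ to 3′ from RefSeq on GRCm38.p6, all on the plus strand of chromosome 2. The RefSeq table held 22 of the 39 members, and Hoxb13 is named only. Capitals mark 4 motifs searched on both strands. TTTATG is the core of sites of Cdx factors, which set posterior Hox domains. TATAAA is the TATA box, CCAAT is the site of the factor NF-Y, and GGGCGG is the core of sites of Sp factors. The TATAAA matches before Hoxd13 overlap each other on opposite strands, and so do repeats of GGGCGG on 1 strand.
Hoxd13, chr2:74667975-74668224: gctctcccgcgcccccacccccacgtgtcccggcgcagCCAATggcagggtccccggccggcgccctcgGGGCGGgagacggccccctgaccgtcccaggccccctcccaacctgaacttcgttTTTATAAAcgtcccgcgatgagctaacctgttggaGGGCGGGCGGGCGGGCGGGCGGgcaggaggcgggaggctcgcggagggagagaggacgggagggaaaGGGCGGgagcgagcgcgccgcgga
Hoxd12, chr2:74674763-74675012: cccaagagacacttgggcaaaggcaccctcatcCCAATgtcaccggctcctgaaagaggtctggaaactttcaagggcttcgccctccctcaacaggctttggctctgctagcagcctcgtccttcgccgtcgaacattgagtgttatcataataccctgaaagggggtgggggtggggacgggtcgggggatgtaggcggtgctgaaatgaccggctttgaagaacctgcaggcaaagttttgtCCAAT
Hoxd8, chr2:74704365-74704614: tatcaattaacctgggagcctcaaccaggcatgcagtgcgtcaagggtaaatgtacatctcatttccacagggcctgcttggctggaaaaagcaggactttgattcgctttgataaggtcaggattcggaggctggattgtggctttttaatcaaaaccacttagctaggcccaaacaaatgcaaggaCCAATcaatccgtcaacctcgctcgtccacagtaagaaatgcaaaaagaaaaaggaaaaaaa
Hoxd4, chr2:74721728-74721977: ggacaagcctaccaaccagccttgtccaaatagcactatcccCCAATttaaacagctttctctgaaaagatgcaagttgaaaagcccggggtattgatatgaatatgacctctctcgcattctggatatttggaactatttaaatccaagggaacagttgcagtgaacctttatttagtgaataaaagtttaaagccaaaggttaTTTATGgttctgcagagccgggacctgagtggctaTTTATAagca
CCAAT was in all 4 windows, and in 33.8% of the 32851 windows of this length in the table. GGGCGG occurred 7 times before Hoxd13, overlaps counted, and in none of the other three (32.7% of all windows hold it). TTTATG was before Hoxd4 alone (10.8% of all windows), and TATAAA before Hoxd13 and Hoxd4 (12.4%). The windows run from 74.4% G and C at Hoxd13 and 55.6% at Hoxd12 to 44.4% at Hoxd8 and 40.4% at Hoxd4. A match is only a match of letters.

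Genes outside the Hox set differed in the same pair of libraries. Evx2, the homeobox gene next to Hoxd13, was at 0.05 and 0.03 FPKM against 0.38 to 1.86 in the other 48. Pyy, a hormone of distal enteroendocrine cells, was at 30.11 and 37.31 FPKM against at least 63.89, and Atp12a, the colonic proton and potassium pump, at 0.98 and 0.39 against at least 1.86. Insl5, a hormone of colonic endocrine cells, was at 17.69 and 23.02 FPKM against 58.49 to 223.7 in the other 8 mice of the group and at least 21.15 in the other 48. The other distal colon genes, Scnn1a, Scnn1b and Scnn1g, which encode subunits of the epithelial sodium channel, did not lie outside the range of the other 8 in both. Aldh1a1, a retinal dehydrogenase, was at 113.53 and 111.45 FPKM against at most 54.23 in those 8, and Slc10a2 at 60.66 and 45.66 against at most 24.01. Both lay within the range of the other 48, which reached 114.07 and 80.65 FPKM. Of the other small intestinal markers, Sis and Apob were above the other 8 in both, Defa24 was below (0.13 and 0.14 FPKM against at least 0.64) and Fabp6 and Lct were neither. None of these lay outside the range of the other 48. Among the regulators of gut position Cdx1 was below the other 8 (96.19 and 95.95 FPKM against at least 100.95) but not below the other 48, and Cdx2 lay within the range of the 8. Summed epithelial markers (10347.84 and 8668.16 CPM) and smooth muscle markers (7932.49 and 7660.66 CPM) were within or below the 9633.49 to 12006.31 and within the 5121.26 to 8559.48 CPM of the other 8. All 5 adipocyte markers lay above those of the other 8 but within the range of the other 48, and their part in the Hox values was not tested.

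**Figure D3:**
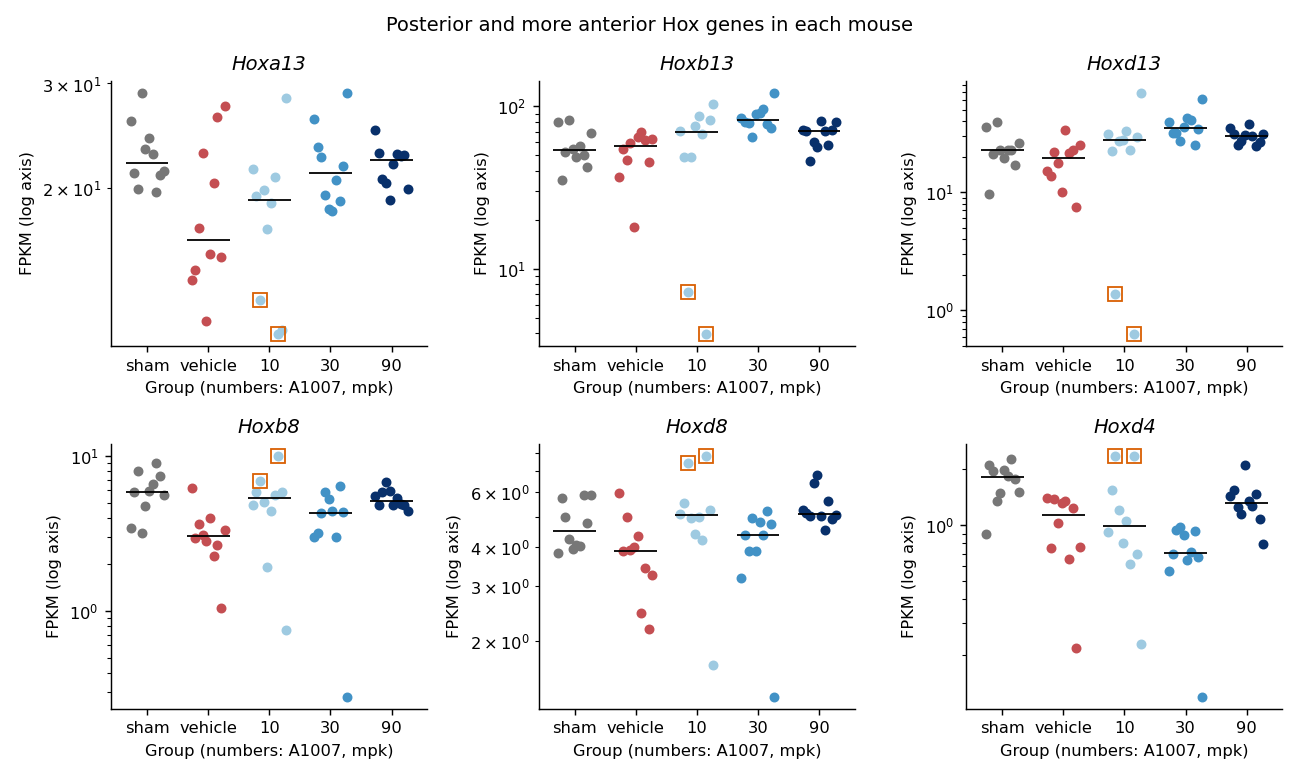
FPKM (log axis) of Hoxa13, Hoxb13, Hoxd13, Hoxb8, Hoxd8 and Hoxd4 in each of 50 mice by group, in replicate order within a group, with black lines at the group medians. Squares mark replicates 3 and 8 of the 10 mpk group, which lie lowest for Hoxb13 and Hoxd13 and highest for Hoxd8 and Hoxd4.

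At the other end, replicate 10 of the 10 mpk group and replicate 10 of the 30 mpk group had the largest group 13 shares. Hoxd13 reached 68.96 and 61.71 FPKM in them and Hoxb13 102.86 and 120.75 FPKM, while Hoxb8, which is expressed further forward, was at 0.75 and 0.28 FPKM. The ratio of Hoxb13 to Hoxb8 was 137.15 and 431.25, against at most 43.07 in any other library. In sham mice that ratio ran from 5.57 to 25.97, so these mice also differed among themselves. Vehicle replicates 5 and 1 had the smallest group 13 shares outside the 10 mpk group, 44.58% and 52.43%. Hoxb13 was at 18.06 FPKM in vehicle replicate 5.

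Hoxb13 and Hoxd13, which lie on different chromosomes, moved together from mouse to mouse. In sham mice Pearson's r on log2(CPM + 0.5) was 0.96 and Spearman's rho 0.93 (n = 10, permutation p = 4e-05 and 0.00033, adjusted over 60 relations 0.0018 and 0.0099), and r stayed at 0.96 without the 2 mice farthest from the median. At 30 mpk r was 0.90 and rho 0.87 (permutation p = 0.00092 and 0.00204, adjusted 0.0184 and 0.0408), and r was 0.72 without the 2 farthest mice. In vehicle and 90 mpk mice r was 0.64 and 0.71, and neither passed the adjusted permutation test (adjusted p = 0.235 and 0.15). At 10 mpk replicates 3 and 8 form a cluster of their own, so no pooled value is given. Without the 2 mice farthest from the median, r was 0.73 there. For Hoxa13 with Hoxb13, r lay between 0.34 and 0.70 in those other 4 groups, n = 10 each, highest in vehicle mice, with no adjusted permutation p under 0.133. Whether this differs from the relation of Hoxb13 with Hoxd13 was not tested. None of the relations of these genes with the summed epithelial, smooth muscle or neutrophil markers passed the adjusted permutation test.

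**Figure D4:**
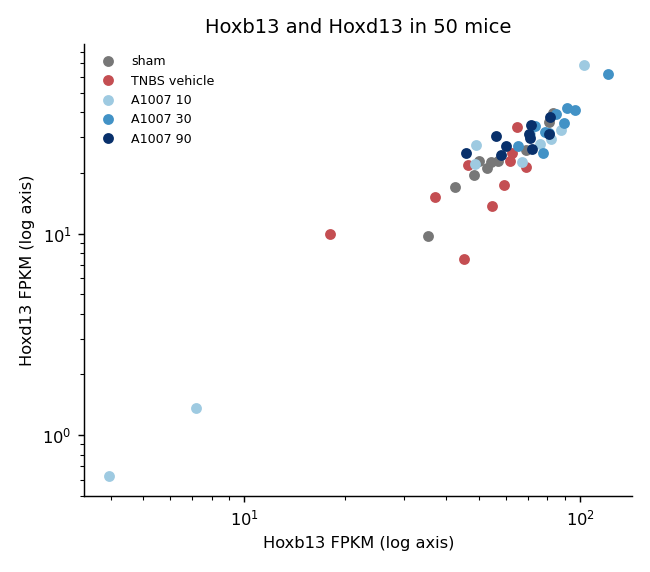
Hoxd13 against Hoxb13 in FPKM (log axes), 1 point per mouse, coloured by group. The points run from replicates 3 and 8 of the 10 mpk group at lower left to replicate 10 of the 10 mpk and 30 mpk groups at upper right.

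The question of the vehicle group is how TNBS colitis changed the colon. Of the 18 tested members of groups 1 to 8, 7 were lower in vehicle than in sham mice and none higher, and of the 11 of groups 9 to 13, 1 was lower and 1 higher. Of 29 tested members 9 changed (edgeR's quasi-likelihood test, Benjamini-Hochberg adjusted p under 0.05), 1 higher and 8 lower, which is 31.0% beside 31.7% of all 17928 genes tested (18.2% higher, 13.5% lower). The log2 fold change was negative for 17 of the 18 members of groups 1 to 8, with a median of -0.42, and had a median of -0.01 in groups 9 to 13, beside 0.02 over all genes.

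Hoxb6, a gene of the trunk and gut mesenchyme, was at a median of 14.56 FPKM in sham mice (7.4 to 21.18) and 6.82 FPKM in vehicle mice (2.62 to 13), so the groups overlapped (a log2 difference of -0.92, SE 0.22, adjusted p = 0.00318). Hoxb8 fell by 0.90 (adjusted p = 0.0047), Hoxd4 by 0.77 (0.0128), Hoxb5 by 0.54 (0.00825), Hoxb4 by 0.44 (0.0299) and Hoxa3 by 0.38 (0.00586). Hoxd3 fell by 0.91 (adjusted p = 0.0344), on at most 37 counts in a library. Hoxb4 and Hoxd3 were not called in every fit that left out 1 library.

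In the posterior set Hoxb9 and Hoxa11 changed, in opposite directions. Hoxb9 was at 26.88 FPKM in sham (21.6 to 30.73) and 18.19 in vehicle mice (16.02 to 22.3), with little overlap (log2 fold change -0.52, SE 0.08, adjusted p = 5.72e-05). Hoxa11, a gene of the posterior trunk and urogenital tract, was at 3.3 FPKM (2.81 to 4.42) and 4.66 FPKM (3.16 to 6.48), a log2 difference of 0.56 (SE 0.13, adjusted p = 0.00234). The antisense gene Hoxa11os went the other way in the same mice, from 25.37 to 18.76 FPKM at the median (log2 fold change -0.46, adjusted p = 0.021).

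The 3 group 13 members were not called. Hoxa13 had a median of 22.06 FPKM in sham (19.7 to 28.88) and 16.29 in vehicle mice (11.91 to 27.45), with a log2 fold change of -0.30 (SE 0.13, adjusted p = 0.0787). Hoxb13 was at 53.56 FPKM (35.2 to 82.85) and 57.14 FPKM (18.06 to 69.12), a change of -0.13 (SE 0.20, adjusted p = 0.645). Hoxd13 was at 22.76 FPKM (9.68 to 39.53) and 19.49 FPKM (7.52 to 33.71), a change of -0.32 (SE 0.25, adjusted p = 0.332). The other posterior members, Hoxa9, Hoxa10, Hoxd9, Hoxd10, Hoxd11 and Hoxd12, had log2 fold changes between -0.09 and 0.24. The tissue makeup moved in the same comparison. Fibroblast markers summed to a median of 4803.31 CPM in vehicle (3913.59 to 9261.03) against 1541.95 CPM in sham mice (1065.56 to 1829.93), with 7 of 8 called higher, and all 8 neutrophil markers were higher, while epithelial markers stood at 10414.53 against 11378.11 CPM. All 7 tested acinar markers were called higher, with group ranges of 57.53 to 39142.06 CPM in vehicle and 39.99 to 92.76 CPM in sham mice. Their part in the Hox changes was not tested.

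**Figure D5:**
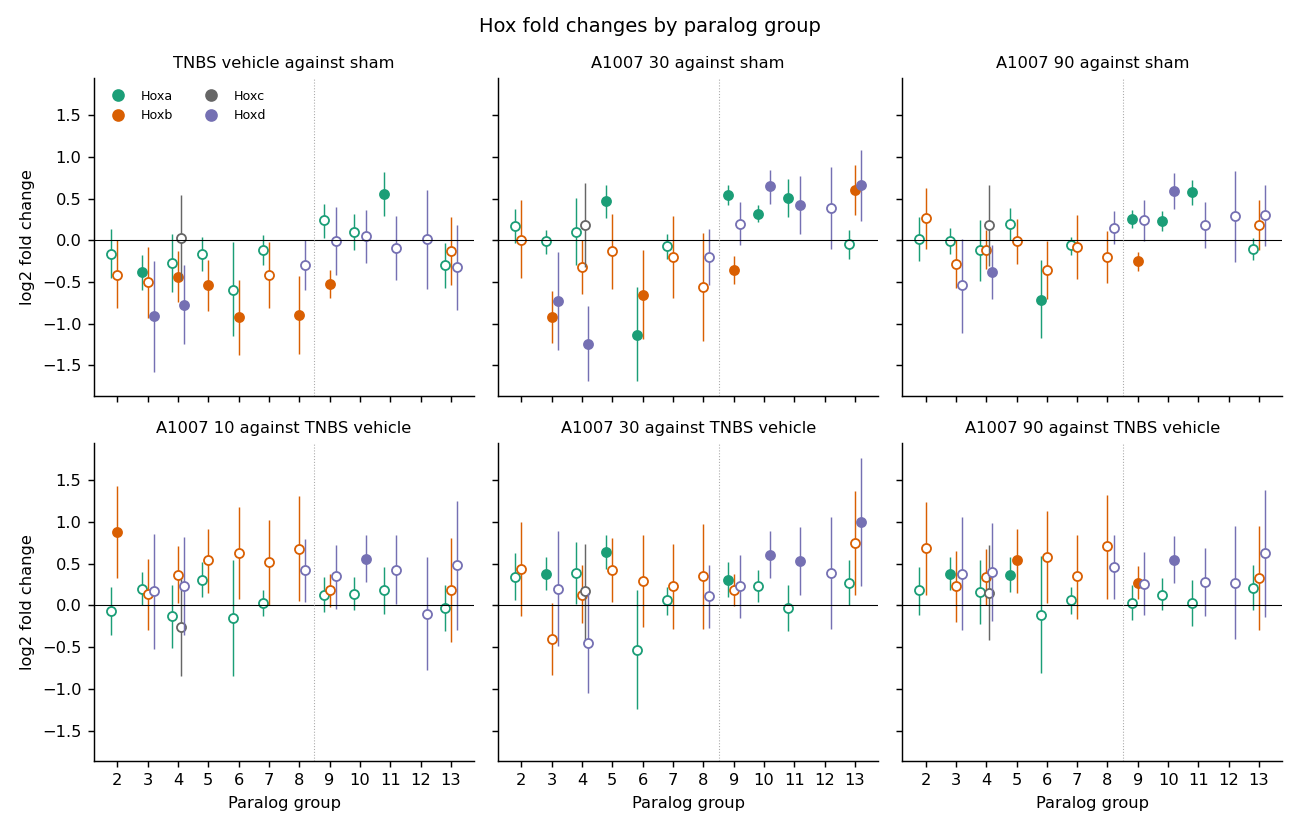
Log2 fold change with 95% interval of the tested Hox genes of paralog groups 2 to 13, in 6 comparisons, filled where the edgeR adjusted p is under 0.05 and open where it is not. In A1007 30 against sham, called members of groups 9 to 13 other than Hoxb9 lie above 0 and called members of groups 1 to 8 other than Hoxa5 lie below.

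The dose groups were compared with vehicle to ask what A1007 did in TNBS mice. These 3 comparisons share the vehicle mice. All Hox genes called in them were higher under A1007. At 10 mpk 2 of 29 members were called, 6.9% beside 5.75% of all genes (2.83% higher, 2.91% lower). At 30 mpk 6 members were called, 20.7% beside 31.4% (13.5% higher, 17.9% lower), and at 90 mpk 5 members, 17.2% beside 18.2% (7.12% higher, 11.1% lower). The shares at 10 and 90 mpk were thus near those over all genes called in either direction, and that at 30 mpk was below. Since every Hox call was higher, the like shares are those of genes called higher, 2.83%, 13.5% and 7.12%. The Hox shares were above these at each dose, on 2, 6 and 5 members, and the difference was not tested. Median log2 fold changes in groups 9 to 13 were 0.18, 0.31 and 0.27 at 10, 30 and 90 mpk, and in groups 1 to 8 they were 0.22, 0.22 and 0.36, beside 0.00, -0.02 and -0.01 over all genes.

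Hoxd10, a gene of the posterior trunk and limb, was called at all 3 doses. Its median was 4.77 FPKM in vehicle mice (2.2 to 7.16), 7.08 at 10 mpk (5.25 to 9.6), 6.7 at 30 mpk (6.24 to 8.55) and 7.03 at 90 mpk (5.61 to 9.04), with overlap each time. The log2 fold changes were 0.56, 0.61 and 0.55 (SE 0.14 each, adjusted p = 0.0148, 0.00108 and 0.00432). With the 2 groups alone in the fit, the 10 mpk call was lost (adjusted p = 0.157). Sham mice had a median of 4.5 FPKM.

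Hoxa5, which patterns lung and gut mesenchyme, rose at 30 and 90 mpk. Its median was 9.27 FPKM in vehicle mice (7.27 to 10.99), 14.04 at 30 mpk (10.81 to 18.09) and 11.69 at 90 mpk (9.36 to 14.12). At 30 mpk the lowest mouse was just under the highest vehicle mouse, and the log2 fold change was 0.64 (SE 0.10, adjusted p = 2.24e-05). At 90 mpk it was 0.37 (SE 0.10, adjusted p = 0.00918). Its genomic neighbour Hoxa3 rose by 0.38 at both doses (adjusted p = 0.00339 and 0.00535), from a median of 2.0 FPKM (1.09 to 2.67) to 2.48 (2.06 to 2.79) and 2.51 FPKM (2.11 to 3.46). Hoxa3 spans Hoxa5 on the same strand, so how far their counts are separate is not known.

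Among the other members of groups 9 to 13, Hoxa9 rose by 0.31 (adjusted p = 0.0214) and Hoxd11 by 0.53 (adjusted p = 0.0443) at 30 mpk, and Hoxb9 rose by 0.27 at 90 mpk (adjusted p = 0.0421). The Hoxa9 call was lost without vehicle replicate 5 or 6, replicate 6 being the acinar-rich library, and those of Hoxd11 and Hoxb9 were kept in 15 and 17 of 31 alternatives. Hoxd13 had a median of 34.88 FPKM at 30 mpk (25.19 to 61.71) against 19.49 in vehicle mice, a log2 fold change of 1.00 (SE 0.38, adjusted p = 0.0425), which was kept in 13 of 31 alternatives. Hoxb13 had a median of 82.74 FPKM at 30 mpk (65.2 to 120.75) against 57.14, a change of 0.75 (SE 0.31, adjusted p = 0.0603). Hoxa13 was at 21.18 FPKM (18.29 to 28.9) against 16.29, a change of 0.27 (SE 0.14, adjusted p = 0.123). With the 30 mpk and vehicle mice alone in the edgeR fit, 5174 of all 17928 genes were called. Hoxb13 (0.76, SE 0.18, adjusted p = 0.00379) and Hoxd13 (1.01, SE 0.22, adjusted p = 0.0025) were among them, and Hoxa13 (adjusted p = 0.121) was not. The calls at 30 mpk fell to 3 (Hoxa3, Hoxa5 and Hoxd10) without vehicle replicate 5, the library with the smallest group 13 share of its group.

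The spread of the 40 TNBS mice includes replicates 3 and 8 of the 10 mpk group, which were singled out for their levels of these same genes, so values without them are a description and not a test. At 30 mpk the SE of Hoxd13 went from 0.38 to 0.20 (log2 fold change 0.99), and that of Hoxb13 from 0.31 to 0.16 (log2 fold change 0.74). At 90 mpk Hoxd13 went from a log2 fold change of 0.63 (SE 0.38) to 0.62 (SE 0.20). At 10 mpk Hoxd13 went from 0.48 (SE 0.38, adjusted p = 0.466) to 0.79, a rise that leaving out its lowest values makes by itself.

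At the lowest dose, Hoxb13 had a median of 69.13 FPKM (3.96 to 102.86), Hoxd13 27.59 FPKM (0.63 to 68.96) and Hoxa13 19.09 FPKM (11.32 to 28.31), none of them called. Apart from Hoxd10, which was called, the other tested members of groups 9 to 13 had log2 fold changes from -0.10 (Hoxd12) to 0.43 (Hoxd11) at 10 mpk. Hoxb2, a hindbrain gene at trace level, was called at 10 mpk, with a median of 0.43 FPKM (0.08 to 0.77) against 0.2 (0.13 to 0.42) in vehicle mice, on at most 50 counts (log2 fold change 0.88, SE 0.27, adjusted p = 0.0472). Its highest mouse was replicate 3, and the call was kept in 10 of 31 alternatives. At 90 mpk Hoxb5 rose by 0.54 (SE 0.19, adjusted p = 0.0419), a call kept in 15 of 31 alternatives and lost without vehicle replicate 6. Hoxb13, Hoxd13 and Hoxa13 stood at 70.72 FPKM (45.83 to 81.63), 30.12 FPKM (24.53 to 37.75) and 22.27 FPKM (19.1 to 24.99), with changes of 0.33, 0.63 and 0.21 that did not pass. With the 90 mpk and vehicle mice alone in the edgeR fit, Hoxd13 alone of these passed (0.63, SE 0.19, adjusted p = 0.029). Smooth muscle markers stood at medians of 6014.02 CPM in vehicle and 7904.24, 7926.79 and 7670.01 CPM at 10, 30 and 90 mpk (2, 4 and 3 of 8 called higher), and fibroblast markers had medians of 4112.07, 2825.68 and 3139.69 CPM. Their part in the Hox changes was not tested.

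Against sham mice, which all 3 doses share as controls, the called members were mostly higher in the posterior groups and lower in the anterior ones. At 10 mpk 4 members were higher and 1 lower, where 36% of all genes were called (21.3% higher, 14.7% lower). At 30 mpk 8 were higher and 6 lower, where 59% of all genes were called (30.3% higher, 28.7% lower). At 90 mpk 4 were higher and 4 lower, where 45.2% were called (23.4% higher, 21.9% lower). The 3 Hox shares, 17.2%, 48.3% and 27.6%, were below those over all genes. In groups 9 to 13 the counts were 4, 7 and 4 higher and 1, 1 and 1 lower of 11, and in groups 1 to 8 they were 0, 1 and 0 higher and 0, 5 and 3 lower of 18. Median log2 fold changes were 0.24, 0.42 and 0.24 in groups 9 to 13 and -0.22, -0.20 and -0.10 in groups 1 to 8, beside 0.03, 0.01 and 0.02 over all genes.

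Hoxa9, Hoxa10, Hoxa11 and Hoxd10 were called higher at every dose. Hoxa9 was at 8.53 FPKM in sham mice (7.63 to 9.51), 10.68 at 10 mpk (8.35 to 17.01), 12 at 30 mpk (11.07 to 14.41) and 10.48 at 90 mpk (9.1 to 12.12). Its log2 fold changes were 0.37, 0.54 and 0.26 (adjusted p = 0.00848, 1.05e-07 and 0.00049), and at 30 mpk every mouse was above every sham mouse. Hoxa10 was at 13.42 FPKM in sham (11.34 to 14.62) and 16.12 at 30 mpk (15.5 to 18.18), again without overlap (0.32, SE 0.05, adjusted p = 5.44e-06), and rose by 0.24 and 0.23 at 10 and 90 mpk (adjusted p = 0.038 and 0.00214). Hoxd10, at 3.31 to 5.86 FPKM in sham mice, also did not overlap at 30 mpk, with changes of 0.61, 0.65 and 0.59 (adjusted p = 0.00122, 6.79e-06 and 9.03e-05). Hoxa11 rose by 0.74, 0.51 and 0.58 (adjusted p = 0.000235, 0.000385 and 3.06e-06). It was already called higher in vehicle than in sham mice. Against vehicle its changes were 0.18, -0.03 and 0.03 at the 3 doses (adjusted p = 0.454, 0.888 and 0.91), none called. Its medians were 5.6 FPKM at 10 mpk (2.65 to 7.57), 4.91 at 30 mpk (3.03 to 6.13) and 5.22 at 90 mpk (4.44 to 6.11), and the 90 mpk mice did not overlap the sham mice.

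Hoxb9 was lower than in sham mice at every dose, by 0.34, 0.35 and 0.25 on the log2 scale (adjusted p = 0.0182, 0.000721 and 0.000731). Its medians were 21.01, 21.12 and 23.2 FPKM. At 30 mpk Hoxb13 rose by 0.61 (SE 0.14, adjusted p = 0.00105), Hoxd13 by 0.66 (SE 0.21, adjusted p = 0.00935) and Hoxd11 by 0.42 (SE 0.17, adjusted p = 0.0343), while Hoxa13 was at -0.04 (SE 0.09, adjusted p = 0.687). At 10 and 90 mpk the changes of Hoxb13 (0.06 and 0.19), Hoxd13 (0.16 and 0.30) and Hoxa13 (-0.33 and -0.10) did not pass. With all 50 mice in 1 fit, which takes in replicates 3 and 8 of the 10 mpk group, Hoxb13, Hoxd13 and Hoxd11 at 30 mpk were not called (adjusted p = 0.0667, 0.107 and 0.061).

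Among the anterior members Hoxd4 fell by 1.24 at 30 mpk (SE 0.22, adjusted p = 3.93e-05) and by 0.38 at 90 mpk (adjusted p = 0.0486). The 90 mpk call was kept in 3 of 8 alternatives. At 30 mpk Hoxa6 fell by 1.13 (adjusted p = 0.00122), Hoxb3 by 0.92 (1.81e-05), Hoxd3 by 0.73 (0.0322) and Hoxb6 by 0.65 (0.0373), whereas Hoxa5 rose by 0.47 (0.000231). At 90 mpk Hoxa6 fell by 0.71 (adjusted p = 0.0131), a call lost with all 50 mice in 1 fit (adjusted p = 0.0949). At 10 mpk no anterior member was called with all mice. Without replicates 3 and 8, which were singled out for their Hox levels, the log2 fold changes of Hoxa6, Hoxb3, Hoxd3 and Hoxd4 went from -0.73, -0.37, -0.74 and -0.54 to -0.90, -0.68, -1.07 and -0.98, given as a description and not a test.

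No member was called between doses in edgeR's test on the 40 TNBS mice. The counts at an unadjusted p under 0.05 were 6 of 29 for 30 against 10 mpk, 4 for 90 against 30 mpk and 0 for 90 against 10 mpk. Of all genes 2.01% were called at 30 against 10 mpk (0.469% higher, 1.55% lower), 0.368% at 90 against 30 mpk (0.0948% higher, 0.273% lower) and 0.1% at 90 against 10 mpk (0.0335% higher, 0.0669% lower). DESeq2 called Hoxa5, 0.34 higher at 30 than at 10 mpk (adjusted p = 0.0313), and no member in the other comparisons of doses. With the 30 and 90 mpk mice alone in the fit, 6 of 29 members differed, where 3072 of all 17928 genes did. Hoxb13 (-0.43, SE 0.10, adjusted p = 0.00695), Hoxd13 (-0.38, SE 0.13, adjusted p = 0.047), Hoxa9 (-0.29, SE 0.06, adjusted p = 0.00187) and Hoxa5 (-0.28, SE 0.08, adjusted p = 0.0205) were lower at 90 mpk, and Hoxb3 (0.62, SE 0.14, adjusted p = 0.00374) and Hoxd4 (0.84, SE 0.22, adjusted p = 0.0107) were higher. In the fit of 40 mice the same differences were -0.42 for Hoxb13 and 0.85 for Hoxd4, with SEs of 0.31 and 0.30.

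Genes that work with the Hox proteins were counted from lists. The Pbx, Meis and Pknox homeodomain proteins bind DNA together with Hox proteins. Of 8 tested, 1 was higher in vehicle than in sham mice (Pknox2, 0.53, adjusted p = 0.00535), and 1, 2 and 2 were higher at 10, 30 and 90 mpk than in vehicle mice, none lower. Pknox2 was low throughout, at most 0.97 FPKM in any library. Pbx3 was called at each dose (0.35, 0.34 and 0.36, adjusted p = 0.017, 0.00354 and 0.00323). Against sham 5, 3 and 6 of the 8 were higher, where 21.3%, 30.3% and 23.4% of all genes were.

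Of 8 tested noncoding genes of the clusters, 5 were lower in vehicle than in sham mice and none higher, where 13.5% of all genes were lower. Hottip, a transcript beside Hoxa13, fell by 0.82 (SE 0.17, adjusted p = 0.000935), from a median of 7.13 to 4.08 FPKM, and Hoxb5os fell by 0.85 (adjusted p = 0.000126). Against vehicle 1, 3 and 2 of the 8 were higher at 10, 30 and 90 mpk, led by Hoxb5os at 10 mpk (0.71, adjusted p = 0.0226) and 90 mpk (0.81, 0.00222) and Hoxa11os at 30 mpk (0.81, 0.000203).

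Among regulators of gut position, Nkx2-3, a gene of gut mesenchyme, was higher in vehicle than in sham mice (0.63, adjusted p = 1.53e-05). Gata6 (-0.32, adjusted p = 0.00064) and Hnf4a (-0.48, 0.00699) were lower. At 30 mpk Cdx1 was higher than in vehicle mice (0.60, adjusted p = 0.000165), with Gata6 (0.28) and Sox2 (0.99). At 10 mpk Sox2, and at 90 mpk Sox2 and Gata6, were the ones higher. Sox2 was at trace level, at most 0.79 FPKM in any library.

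Polycomb and trithorax proteins keep Hox clusters off or on. Of 12 tested, Rnf2 (-0.21, adjusted p = 0.00359) and Ezh1 (-0.22, 0.0323) were lower in vehicle than in sham mice. Against vehicle, Ezh2 was lower at 10 and 30 mpk (-0.26 each, adjusted p = 0.0253 and 0.00556), Suz12 lower at 30 mpk (-0.23, 0.0151) and Kmt2d higher at 10 and 90 mpk (0.31 and 0.29).

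Retinoic acid is a signal that sets Hox domains. In vehicle mice 4 of 12 tested genes of the pathway were higher and 2 lower than in sham mice, where 18.2% of all genes were higher and 13.5% lower, with Aldh1a3 higher (3.35, adjusted p = 2.72e-05) and Aldh1a1 lower (-1.16, 8.12e-05). At 30 mpk 4 were lower than in vehicle mice, among them Aldh1a3 (-2.30, adjusted p = 0.000458) and Aldh1a2 (-1.08, 0.00245), and at 90 mpk 4 were lower. At 10 mpk Rarg, a receptor, was higher (0.32, adjusted p = 0.0331).

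Genes with higher levels in distal than proximal colon changed in both directions. Of 6 tested, Pyy was higher in vehicle than in sham mice (0.83, adjusted p = 0.00582), and Atp12a (-2.28, 0.000449) and Scnn1a (-0.57, 0.00505) were lower. At 30 mpk Insl5 was higher than in vehicle mice (1.5, adjusted p = 0.000587), while Scnn1b (-0.86, 0.00543) and Scnn1g (-1.5, 0.0128) were lower. At 90 mpk Scnn1g was lower (-1.42, adjusted p = 0.0268), and at 10 mpk none of the 6 was called by edgeR. Against sham all 6 were called at each dose, Pyy and Insl5 higher and Atp12a, Scnn1a, Scnn1b and Scnn1g lower, with median log2 fold changes of -0.52, -0.53 and -0.38 at 10, 30 and 90 mpk. At 30 mpk Pyy was higher by 1.30 (adjusted p = 3.08e-08) and Atp12a lower (-1.51, 0.000149).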

How the data were processed

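The authors deposited 1 table of raw read counts per gene and library, with FPKM values, exon lengths, symbols and GRCm39 coordinates. Per the submitters' processing notes the tools were cutadapt 1.9.1, HISAT2 2.2.1, HTSeq 0.6.1 and DESeq2, on GRCm39. The sources used here give neither their order and settings nor the handling of strand and multiply mapped reads. The deposited FPKM matched the counts, exon lengths and totals within 1% for 99.997% of values with at least 500 counts.

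Counts were fitted over all 17928 genes with enough counts (filterByExpr, count minimum 10) by edgeR 4.0.16 in R 4.3.3 (glmQLFit and glmQLFTest, robust, TMM), with p-values adjusted over all genes and called under 0.05. Comparisons with sham used the 20 mice of both groups, and those with vehicle and between doses used the 40 TNBS mice. limma 3.58.1 and DESeq2 1.42.0 served as alternatives.

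Hox members, lists and tests were chosen with earlier results of these data known. Named Hox genes were the tested members of groups 9 to 13, called members of groups 1 to 8 and the 2 highest of groups 1 to 8 in each cluster. From other lists up to 3 called genes with the smallest p were named, and genes that set replicates 3 and 8 apart were chosen after their values were seen. Relations used 100000 permutations. Samples were grouped by their titles, and libraries of a group were taken as separate mice. The labels do not say that a shared replicate number marks shared mice, litters or days, so numbers pair nothing. Some members and list genes enter the counts but are not reported here by name.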

Additional observations from a re-analysis of the deposited data

Results flagged for a closer look

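FPKM of the 29 tested Hox genes and the group 13 share, 150 sets of 10 mice in all, were searched for a single library lying far from the other 9. There were 17 such values by Dixon's ratio of gap to range. Its rate by chance, about 1 in 20 sets, assumes normal values and unrelated sets. Genes that move together in the same library do not meet this, so the 17 are a description only. In sham mice Hoxa6 was high in replicate 9 (4.5 FPKM, next 3.07) and Hoxa11 in replicate 3 (4.42, next 3.64). In vehicle mice Hoxb3 was low in replicate 9 (0.26 FPKM, next 0.88) and Hoxc4 high in replicate 6 (0.67, next 0.33).

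At 10 mpk Hoxa3 (2.91 FPKM) and Hoxa9 (17.01) were high in replicate 9, and Hoxa6 (4.06), Hoxd11 (4.51) and Hoxd13 (68.96) in replicate 10. The pair of replicates 3 and 8 did not meet this criterion for Hoxb13 or Hoxd13, since each has the other near it. At 30 mpk replicate 10 was low for Hoxb9 (13.42 FPKM), Hoxd4 (0.12) and Hoxd8 (1.32), and high for Hoxd13 (61.71) and for the group 13 share (77.57%). At 90 mpk Hoxa3 was high (3.46 FPKM) and Hoxd11 low (1.32) in replicate 7, and Hoxb3 high in replicate 5 (2.06).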

How the results depend on the processing

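Of 49 calls of a Hox gene in a comparison, 30 were kept under every alternative run and none changed sign. The number of alternatives was not the same for all. Calls of a dose against sham faced 8 or 9, none of which left out 1 mouse at a time. Calls in the other comparisons faced 29 or 31, most of which did. Counts of called members moved by over 1.5 times as follows. For vehicle against sham, 9 became 15 with quantile-normalized voom (1 higher, 14 lower), while all genes called went from 5681 to 5930 of 17928. For 10 mpk against vehicle, 2 became 1 with limma on log2(FPKM + 0.1) or log2(FPKM + 1), with voom, with no filter on low counts and with the replicate block, and 0 with the 2 groups alone, where 4 of all genes were called. In the fits with 1 call, all genes called went from 1030 to 588, 582, 600, 545 (of 38081 tested) and 922, in that order. For 90 mpk against vehicle, 5 became 10 with the 2 groups alone, while all genes called went from 3266 to 3106. For 10 mpk against sham, 5 (4 higher) became 12 with voom (4 higher), 8 with the replicate block and 9 without replicates 3 and 8 of that group, an alternative chosen after seeing their Hox values, so its calls are no test. Over all genes the calls went from 6463 to 6510, 5806 and 8252 in these fits. For 90 mpk against sham, 8 became 5 with all 50 mice in 1 fit, while all genes called went from 8111 to 4399. For 30 against 10 mpk, 0 became 1 with all 50 mice, DESeq2, voom or the replicate block, while all genes called went from 361 to 869, 796, 394 and 471. For 90 against 30 mpk, 0 became 6 with the 2 groups alone, where 3072 of all genes were called, and 1 with the replicate block, where 586 were. Leaving out 1 mouse at a time gave 7 to 11 calls for vehicle against sham, 1 to 4, 3 to 8 and 3 to 7 for 10, 30 and 90 mpk against vehicle, 0 to 2 for 30 against 10 mpk, and 0 for 90 mpk against the other doses. The 3 calls at 30 mpk came without vehicle replicate 5.

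For same-numbered libraries the median correlation of deviations ran from -0.07 to 0.21, and no pair of groups had all 10 pairs over 0.1. It was highest for vehicle and 10 mpk mice, at 0.21 against -0.01 for other numbers, with 6 of 10 pairs over 0.1. By CPM the median group 13 share was 53.5% in sham, 53.12% in vehicle, 53.52% at 10, 60.17% at 30 and 56.92% at 90 mpk. As the mean log2(FPKM + 0.1) of group 13 minus that of groups 9 and 10 it was 1.9, 1.76, 1.73, 2.01 and 1.87, with 30 mpk highest each time. The replicates are separate samples per the labels, and p-values measure the spread between them. Members under about 50 counts are limited by depth.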
